A study of Homo sapiens with 4 samples.

Results

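The heterogeneous nuclear ribonucleoproteins (hnRNPs, gene symbols HNRNP) and the serine/arginine-rich splicing factors (SR proteins, gene symbols SRSF) were followed in HT1080 cells, a human fibrosarcoma line, with and without hypoxia. A gene was included where a probe set named it alone and its symbol began with HNRNP, SRSF or SFRS. This gave 32 of the 18417 genes that had such a probe set, 20 HNRNP and 12 SRSF genes. Where a gene had several probe sets, the one with the highest mean over the 4 arrays was taken. Of the 20 HNRNP genes, 4 are copies of another HNRNP gene (HNRNPA1L2, HNRNPCL1, HNRNPCL2 and the pseudogene HNRNPA3P1), and these are given apart from the other 16. HNRNPC and HNRNPA3 had no probe set that named them alone and are not among the 20. Cells were kept for 36 h at 1% oxygen (hypoxia) or at 21% oxygen (control), in both cases in low-serum medium that they had been in for at least a day. Each condition was measured as ER-RNA, the RNA recovered with an endoplasmic reticulum (ER) preparation, and as total RNA. The ER preparation started from cells pre-treated with cycloheximide, which holds ribosomes on mRNA. There was 1 Affymetrix Human Gene 1.0 ST array for each of the 4 groups, ER-RNA in hypoxia, ER-RNA in control, total RNA in hypoxia and total RNA in control, and each carried RNA pooled from 5 experiments. There are therefore no replicates and no p-values, and precision is limited by having so few arrays.

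Both families bind pre-mRNA in the nucleus. SR proteins carry 1 or more RNA recognition motifs and a tail rich in arginine and serine, and typically sit on exonic enhancers, where they recruit the spliceosome and favour inclusion of the exon. Many hnRNPs sit on silencers and act against inclusion, and members of both families also shuttle to the cytoplasm and take part in mRNA export, stability and translation. SR proteins are phosphorylated by the SRPK and CLK kinases, and many SR and hnRNP genes limit their own expression by splicing in a poison exon that sends the transcript to nonsense-mediated decay.

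Values are RMA signals on the log2 scale, and a change is hypoxia minus control within one fraction. A gene was taken as expressed in a fraction if its signal exceeded the array median on 1 or both of the 2 arrays. A change was called where the fold was over 1.4 and the z-score was over 3 in size. The z-score is the log2 difference over an SD modelled from the signal. That SD is the absolute difference of the 2 arrays over the square root of 2, smoothed over genes of similar signal. It is smaller than the SD of the log2 differences between genes, so a z-score of 3 is less than 3 of those SDs. In cultures measured as a whole, fewer cells with a transcript and less of it per cell cannot be told apart. The z-score rests on the scatter between genes and not on repeated samples. Mesenchymal markers were above the median of all 4 arrays for 8 of 8 genes, while 0 of 3 blood markers and 1 of 4 epithelial markers (KRT14) counted as expressed. The array medians were 6.34 for ER-RNA in hypoxia and 6.25 for ER-RNA in control, against 7.49 for total RNA in hypoxia and 7.41 for total RNA in control, so signals were compared between fractions only after centring on the median gene. On that scale mRNAs of secreted and ER-lumen proteins lay lower in ER-RNA than in total RNA, with a median log2 difference of -0.81 at 1% oxygen and -1.06 at 21% oxygen, whereas cytosolic mRNAs lay higher, at 0.86 and 1.00. The 3 measured RNAs of a nuclear list did not go the same way. MALAT1 was at -1.88 and -1.09, RMRP, an RNA of nucleolus and mitochondria, at 1.58 and 0.88, and RPPH1 at 2.45 and 2.32. The lists differ in signal, with medians over the 4 arrays from 12.93 to 13.19 for cytosolic mRNAs and from 9.53 to 11.95 for secretory ones. Centring takes off the same offset at every signal, and the part of signal level in these differences was not tested. The paper assessed purity of the ER fraction by marker proteins of the ER and the cytosol. Relative to the median gene the listed secretory mRNAs thus were not higher in ER-RNA, and ER-RNA is used below as the name of the fraction only.

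Most HNRNP and SRSF transcripts were lower in hypoxia than in control, more so in ER-RNA than in total RNA. In ER-RNA 5 HNRNP genes (HNRNPAB, HNRNPA2B1, HNRNPR, HNRNPM and HNRNPH3) and 3 SRSF genes (SRSF1, SRSF7 and SRSF10) were called lower. In total RNA 2 HNRNP genes (HNRNPAB and HNRNPM) and 0 SRSF genes were called lower, and both HNRNP genes were also called in ER-RNA. No member was called higher in either fraction. Of the 16 HNRNP genes 15 counted as expressed in each fraction, and of the 12 SRSF genes 11 did, all of them above the median on both arrays of the fraction. Among all expressed genes, 8.25% were called lower and 1.12% higher in ER-RNA, and 7.45% were called lower and 2.32% higher in total RNA. By probe set, 1286 were called lower and 273 higher in ER-RNA, and 1120 lower and 574 higher in total RNA. At the same thresholds the paper reported fewer lower and more higher transcripts in each fraction. The calls here therefore differ from those of the paper and lean more to the lower side. The part of the z-score model in this difference was not tested. Of all genes, 859 were called lower in total RNA and 980 in ER-RNA, with 495 called lower in both. Lower calls in both fractions and in a single fraction were thus each common. With the SD taken from the scaled median absolute deviation of the log2 differences, which is a stricter model, 0 HNRNP and 0 SRSF genes were called in either fraction. Under that model 2.01% of all expressed genes were called lower and 0.328% higher in ER-RNA, and 1.81% lower and 0.867% higher in total RNA, so calls were few among all genes too.

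HNRNPAB (chr5:178204533-178211163 in RefSeq's GRCh38.p14), an hnRNP of the A/B type that binds both RNA and single-stranded DNA, was the member with the greatest decrease in total RNA. Its log2 signal was 9.68 in ER-RNA in hypoxia and 10.95 in ER-RNA in control, and 10.37 in total RNA in hypoxia and 11.51 in total RNA in control. Hypoxia was below control by about the same step in both fractions, a log2 change of -1.27 in ER-RNA (fold 0.42, z = -4.03) and -1.14 in total RNA (fold 0.45, z = -4.20). HNRNPM (chr19:8444975-8489114), which binds GU-rich sequence, had 7.16 in hypoxia and 8.03 in control in ER-RNA, and 8.43 in hypoxia and 9.43 in control in total RNA. It was the only HNRNP gene besides HNRNPAB that was called in total RNA, at -0.88 in ER-RNA (z = -3.25) and -1.0 in total RNA (z = -3.75). The call of HNRNPM in ER-RNA, but not the one in total RNA, was lost when each pair of arrays was normalized by loess.

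**Figure D1:**
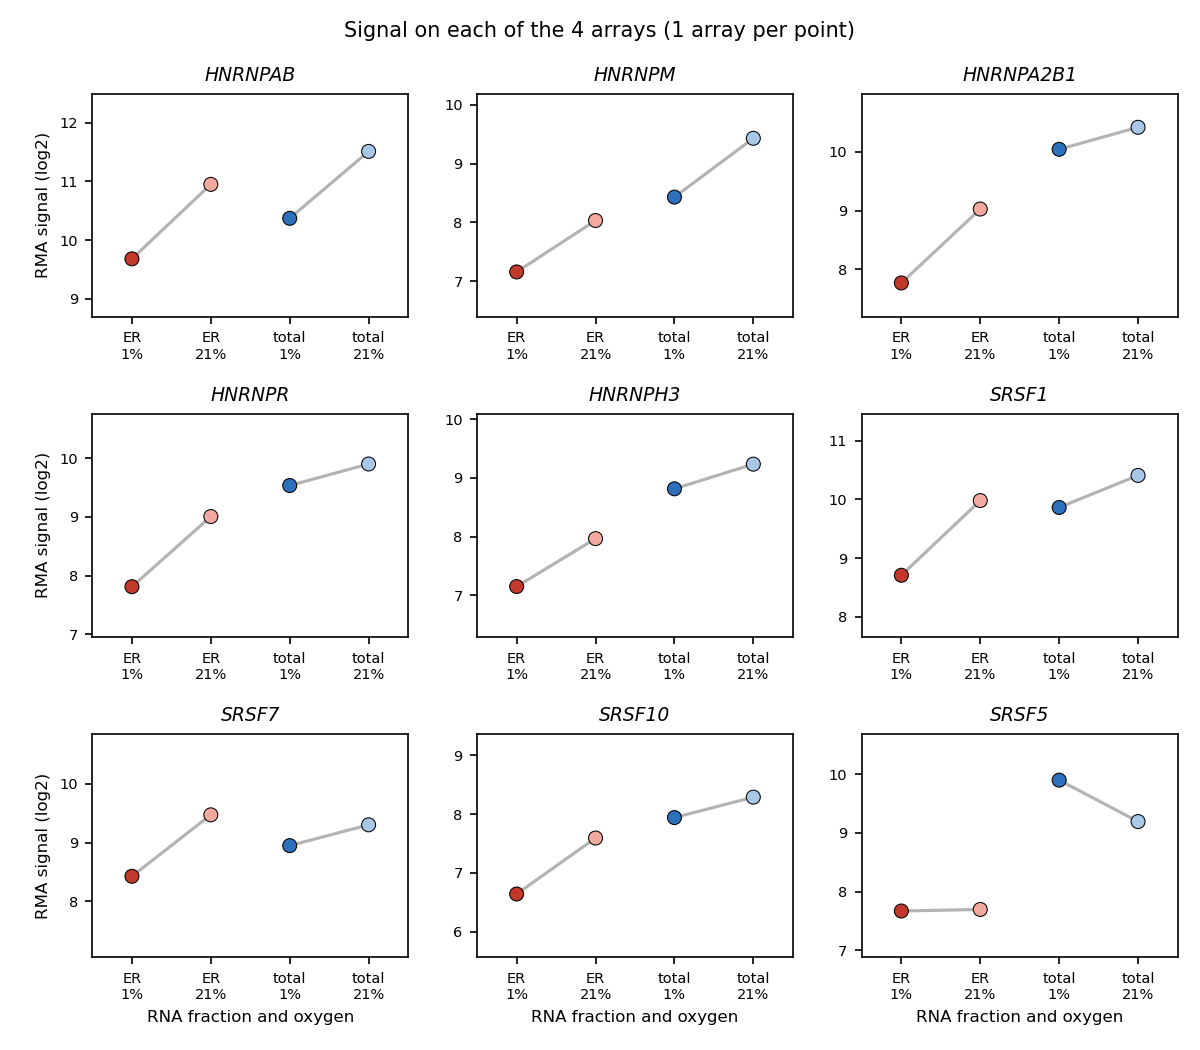
Log2 RMA signal (y axis, each panel spanning the same range of log2 units) on the 4 arrays (x axis: ER-RNA at 1% and 21% oxygen, total RNA at 1% and 21% oxygen) for the 8 members called in ER-RNA and for SRSF5, 1 array per point and lines joining the arrays of a fraction. In 8 panels the hypoxia point lies below the control point in both fractions, while SRSF5 lies higher in hypoxia in total RNA only (9.90 against 9.19).

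The other called HNRNP genes were called in ER-RNA alone. HNRNPA2B1 (chr7:26189927-26200746), which takes part in splicing, in mRNA transport and in the sorting of microRNAs, had 7.77 in hypoxia and 9.03 in control in ER-RNA, and 10.04 in hypoxia and 10.42 in control in total RNA. HNRNPA2B1 changed by -1.26 in ER-RNA (fold 0.42, z = -4.10) and -0.38 in total RNA (z = -1.33). HNRNPR (chr1:23304688-23344284), a close relative of SYNCRIP, had 7.81 in hypoxia and 9.01 in control in ER-RNA, and 9.54 in hypoxia and 9.90 in control in total RNA. Hypoxia was thus lower by 1.19 in ER-RNA (z = -3.89) and by 0.37 in total RNA (z = -1.31), the same shape as HNRNPA2B1. HNRNPH3 (chr10:68331693-68343196), of the HNRNPF and HNRNPH group that binds runs of G, had 7.15 in hypoxia and 7.97 in control in ER-RNA, and 8.81 in hypoxia and 9.23 in control in total RNA. Its change of -0.82 in ER-RNA lay just past the threshold (z = -3.05) and was lost with quantile or loess normalization, and its change in total RNA was -0.42. HNRNPH1, of the same group, lay just short of it in ER-RNA. It had 7.66 in hypoxia and 8.52 in control in ER-RNA, a change of -0.86 (z = -2.93), and 9.0 and 9.46 in total RNA, a change of -0.45.

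The remaining 9 expressed HNRNP genes were not called, and the z-score furthest from 0 among them was -2.20, for HNRNPD in ER-RNA. In ER-RNA their changes lay between -0.66 and -0.34, and in total RNA between -0.53 and -0.04. HNRNPD, also known as AUF1 and a regulator of mRNAs with AU-rich elements, changed by -0.66 in ER-RNA and -0.43 in total RNA, and its relative HNRNPDL by -0.34 and -0.18. HNRNPL, which binds CA repeats, changed by -0.56 and -0.35, and its relative HNRNPLL, known from T cell splicing, by -0.54 and -0.04. HNRNPF changed by -0.53 and -0.17, HNRNPU, a large chromatin-associated scaffold protein, by -0.46 and -0.26, and HNRNPK, which binds C-rich sequence through KH domains, by -0.41 and -0.28. HNRNPA0 changed by -0.53 in ER-RNA and -0.47 in total RNA. HNRNPUL1 was the expressed HNRNP gene besides HNRNPM whose change was not lower in ER-RNA than in total RNA, at -0.52 and -0.53. HNRNPA1, the archetypal splicing repressor, was below the median on all 4 arrays with its 1 probe set, which rests on a single cDNA, and its signal was 6.15 in hypoxia and 6.02 in control in ER-RNA and 6.0 and 6.59 in total RNA.

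Several HNRNP genes also have probe sets that name more than 1 gene, which the selection leaves out. The 4 such probe sets for HNRNPA1 and its copies had signals between 11.75 and 12.18, with changes from -0.01 to 0.05 in ER-RNA and from -0.22 to -0.14 in total RNA, and none was called. The 3 probe sets shared by HNRNPA3 and HNRNPA3P1 changed by -0.90 to -0.89 in ER-RNA, where 1 was called, and by -0.35 to -0.30 in total RNA. The 2 probe sets for HNRNPC and its copies changed by -0.57 and -0.55 in ER-RNA and by -0.51 and -0.33 in total RNA, and were not called. The transcripts named together in these 9 probe sets are close to identical, so their signals cannot be assigned to 1 gene. The remaining 3 such probe sets name a gene together with a read-through transcript. The one for HNRNPH2 changed by -0.90 in ER-RNA and -0.70 in total RNA and the one for HNRNPUL2 by -0.16 and 0.11, and neither was called. The one for BSCL2, which is not an hnRNP gene, and its read-through from HNRNPUL2 was called lower in both fractions, at -0.92 and -0.82. Of the 4 copies measured alone, HNRNPA3P1 counted as expressed in both fractions and HNRNPA1L2 in ER-RNA only. HNRNPA3P1 changed by -0.55 in ER-RNA and -0.02 in total RNA and was not called. HNRNPA1L2 changed by -0.05 and -0.23, while HNRNPCL1 and HNRNPCL2 lay below the median on all 4 arrays.

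In the SRSF family, SRSF1 (chr17:57989038-58007246), among the first SR proteins described and a proto-oncogene, had the greatest decrease. It had 8.71 in hypoxia and 9.98 in control in ER-RNA, and 9.86 in hypoxia and 10.41 in control in total RNA. Its change was -1.27 in ER-RNA (fold 0.41, z = -3.92) and -0.55 in total RNA (fold 0.69, z = -1.94). SRSF7 (chr2:38743599-38751494), the SR protein with a zinc knuckle, which also couples splicing to mRNA export, had 8.43 in hypoxia and 9.47 in control in ER-RNA, and 8.95 in hypoxia and 9.30 in control in total RNA. Its change was -1.05 in ER-RNA (z = -3.26), not called with quantile or loess normalization, and -0.35 in total RNA (z = -1.30). SRSF10 (chr1:23964347-23980327), which represses splicing when it is dephosphorylated during heat shock, had 6.64 in hypoxia and 7.59 in control in ER-RNA, and 7.94 in hypoxia and 8.29 in control in total RNA. Its change was -0.95 in ER-RNA (z = -3.99) and -0.35 in total RNA (z = -1.54). SRSF10 was the only member with 2 probe sets of its own, and the other was also called lower in ER-RNA, at -0.91 (z = -3.89), with -0.28 in total RNA. SRSF8 had 9.11 in hypoxia and 10.06 in control in ER-RNA, and 9.54 in hypoxia and 10.01 in control in total RNA. Its change of -0.96 in ER-RNA was not called (z = -2.94), and that in total RNA was -0.48. The annotation lists a shared cDNA under the probe sets of SRSF1 and SRSF8, so these are not fully separate readings.

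SRSF5 (chr14:69767142-69772005), also known as SRp40, was the member with the highest change in total RNA. It had 7.67 in hypoxia and 7.70 in control in ER-RNA, and 9.90 in hypoxia and 9.19 in control in total RNA. Hypoxia and control were therefore level in ER-RNA, at -0.03, while total RNA differed by 0.71 (fold 1.63), which was past the fold threshold but not the z-score (z = 2.53). The change in total RNA was called with quantile (0.90) and with loess normalization (0.82). SRSF4 (SRp75) had 7.94 in hypoxia and 7.76 in control in ER-RNA, a change of 0.18, and 9.33 and 9.42 in total RNA, a change of -0.09. SRSF6 (SRp55) changed by -0.48 in ER-RNA and 0.00 in total RNA, and SRSF9 by -0.34 and 0.13. SRSF2, also known as SC35 and long used to mark nuclear speckles, changed by -0.65 in ER-RNA and -0.34 in total RNA. SRSF3, the smallest SR protein and an adaptor for mRNA export, changed by -0.46 and -0.32, and SRSF11 by -0.29 and -0.12. SRSF12 lay below the median on all 4 arrays, with changes of 0.05 and 0.44.

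**Figure D2:**
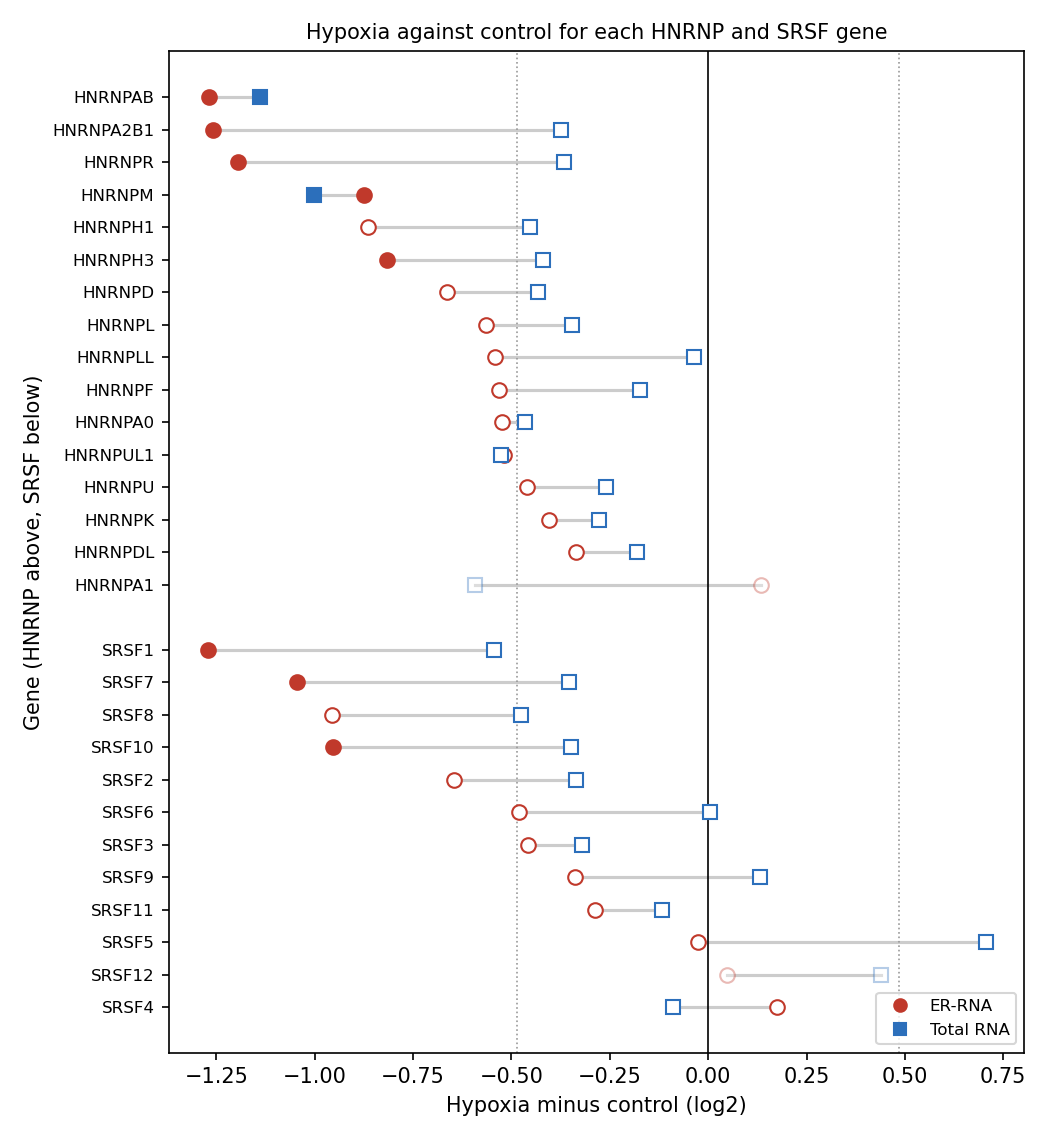
Hypoxia minus control on the log2 scale (x axis) for the 16 HNRNP and 12 SRSF genes that are not copies (y axis, ordered by ER-RNA within each family), in ER-RNA (circles) and total RNA (squares). Filled symbols were called, open symbols were not, pale symbols are genes below the expression filter, and dotted lines mark 1.4-fold. ER-RNA lies left of total RNA for 13 of 16 HNRNP genes and 11 of 12 SRSF genes.

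Read as families, the medians over expressed members were -0.56 for HNRNP and -0.48 for SRSF in ER-RNA, against -0.04 for all expressed genes. In total RNA they were -0.38 for HNRNP and -0.32 for SRSF, against -0.06 for all expressed genes. Over all members, expressed or not, the medians were -0.55 and -0.47 in ER-RNA and -0.40 and -0.22 in total RNA. All 15 expressed HNRNP genes had a change below 0 in both fractions, whereas 10 of 11 SRSF genes did in ER-RNA and 8 of 11 in total RNA. Probe sets that name several genes are not counted here. Among those, HNRNPA1 with its copies was nearly level in ER-RNA and HNRNPUL2 slightly higher in total RNA. The ones for HNRNPA3, HNRNPC and HNRNPH2 were lower in both fractions. Of all expressed genes, 52.5% were below 0 in ER-RNA and 55.7% in total RNA. By fold alone, 12 HNRNP and 5 SRSF genes were more than 1.4-fold lower in ER-RNA, where the share of all expressed genes was 21.4%, and 3 HNRNP and 1 SRSF genes in total RNA, where it was 18.6%. Past 1.4-fold higher were 0 members in ER-RNA and SRSF5 alone in total RNA, with 6.53% and 6.20% of all expressed genes. The family medians stayed below 0 under each normalization tried.

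The families lay close to each other, and their ranges overlapped in both fractions. The HNRNP median was below the SRSF median by 0.08 in ER-RNA and by 0.05 in total RNA. In ER-RNA the HNRNP genes ran from -1.27 to -0.34 and the SRSF genes from -1.27 to 0.18. In total RNA the HNRNP genes ran from -1.14 to -0.04 and the SRSF genes from -0.55 to 0.71. SRSF genes were thus the more spread upwards in both fractions and HNRNP genes reached lower in total RNA. With 1 array per group no test of the difference between the families was possible.

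The change in ER-RNA was lower than the change in total RNA for 13 of 15 HNRNP genes and 10 of 11 SRSF genes expressed in both fractions, against 51.5% of all such genes. The median of this difference, ER-RNA change minus total RNA change, was -0.22 for HNRNP genes and -0.48 for SRSF genes, against -0.01 for all genes. It was greatest for HNRNPA2B1 (-0.88) and HNRNPR (-0.83) among HNRNP genes, and for SRSF5 and SRSF1 (-0.73 each) and SRSF7 (-0.69) among SRSF genes. HNRNPM (0.13) and SRSF4 (0.27) went the other way. Under quantile normalization the HNRNP median was -0.09, with 10 of 15 genes lower, while the SRSF median was -0.44.

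**Figure D3:**
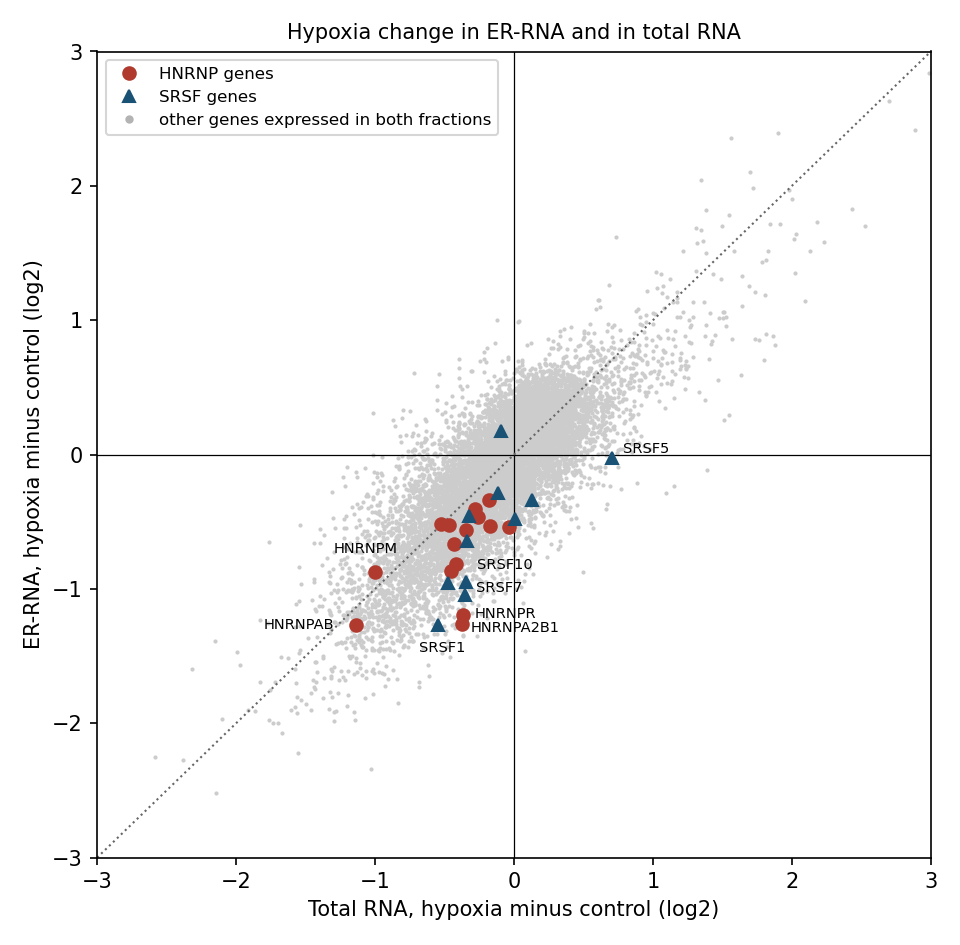
Hypoxia minus control on the log2 scale in ER-RNA (y axis) against total RNA (x axis) for genes expressed in both fractions, with 15 HNRNP genes (circles) and 11 SRSF genes (triangles) over the other genes (grey). The dotted line marks equal change, and 13 of 15 HNRNP and 10 of 11 SRSF genes lie below it.

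The same arrays were read as ER-RNA minus total RNA within each oxygen level, less the median gene. At 1% oxygen the median was -0.10 for HNRNP genes and 0.28 for SRSF genes, against 0.09 for all expressed genes. At 21% oxygen it was 0.18 for HNRNP genes and 0.65 for SRSF genes, against 0.11. The HNRNP median was thus below the SRSF median by 0.38 at 1% oxygen and by 0.47 at 21% oxygen, although ranges overlapped at both levels. Past 1.4-fold above the median gene were 1 HNRNP and 4 SRSF genes at 1% oxygen (28.8% of all expressed genes) and 3 HNRNP and 7 SRSF genes at 21% oxygen (31.5%). Past 1.4-fold below it were 4 HNRNP and 2 SRSF genes at 1% oxygen (24.5%) and 1 HNRNP and 1 SRSF genes at 21% oxygen (24.2%). The position of either family relative to 0 depended on the scaling: with quantile normalization the SRSF median at 1% oxygen was -0.12 and the HNRNP median at 21% oxygen was -0.13, and HNRNP stayed below SRSF.

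The members were spread widely on this scale. HNRNPLL (0.81 at 1% and 1.34 at 21% oxygen), SRSF9 (0.78 and 1.28), SRSF8 (0.66 and 1.16) and SRSF7 (0.57 and 1.28) lay high in ER-RNA. HNRNPUL1 lay low, at -1.19 and -1.17, and was the expressed member that moved least between oxygen levels. SRSF5 was at -1.14 at 1% oxygen and -0.38 at 21% oxygen, SRSF6 at -0.79 and -0.28, and HNRNPA2B1 at -1.19 and -0.28. HNRNPR, SRSF1 and SRSF10 were below the median gene at 1% oxygen (-0.63, -0.06 and -0.21) and above it at 21% oxygen (0.22, 0.69 and 0.42).

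**Figure D4:**
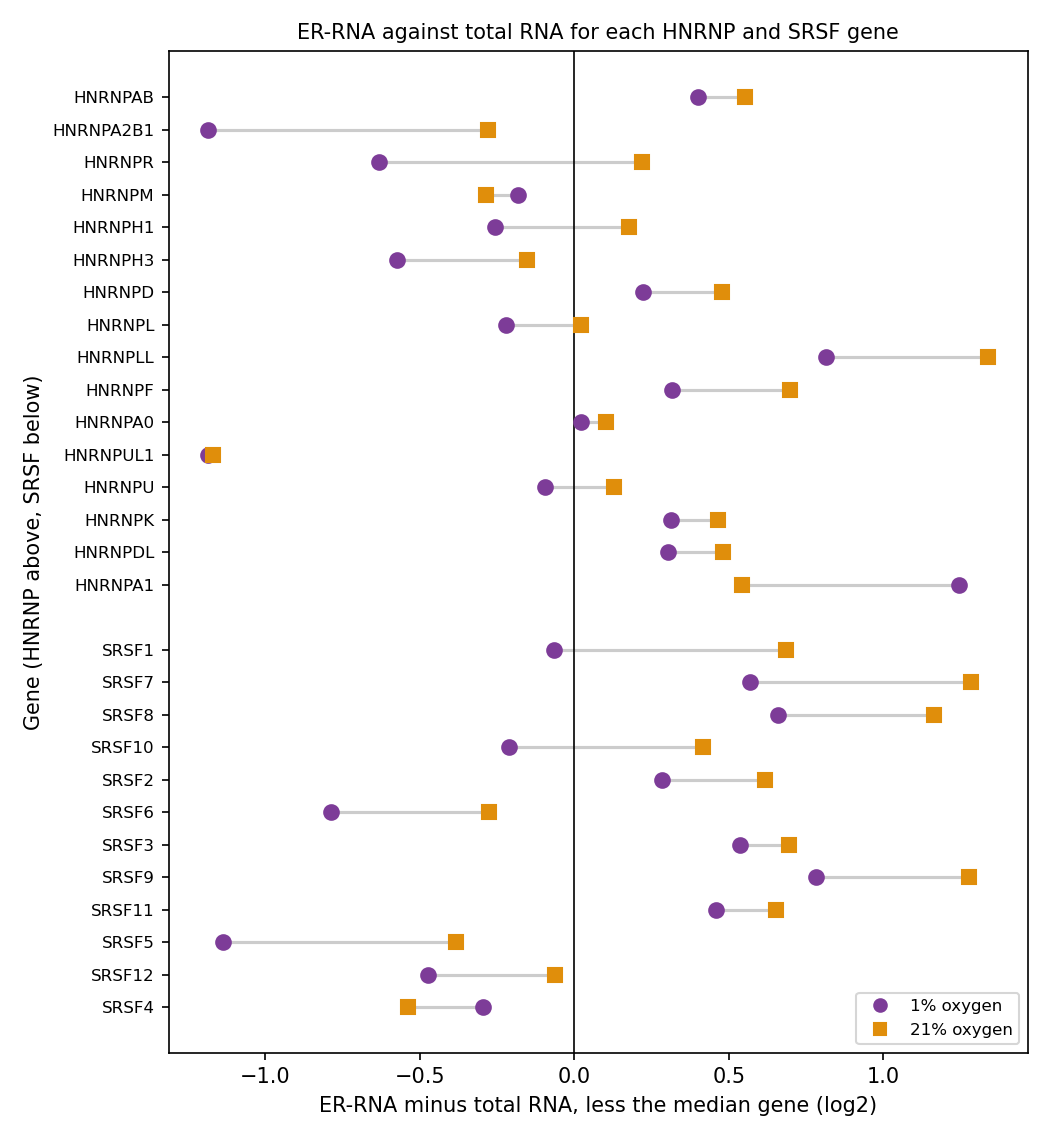
ER-RNA minus total RNA on the log2 scale, less the median gene (x axis), at 1% oxygen (circles) and 21% oxygen (squares) for 16 HNRNP and 12 SRSF genes (y axis, same order as in the plot of hypoxia changes). HNRNPUL1 is low at both levels (-1.19 and -1.17) and HNRNPLL high (0.81 and 1.34), and the place of 0 depends on the normalization.

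Some members lie close together in the genome, and neighbours did not always share their change. Within 1 Mb of each other lay HNRNPD and HNRNPDL on chromosome 4 (48.6 kb apart), HNRNPLL and SRSF7 on chromosome 2 (141 kb) and HNRNPR and SRSF10 on chromosome 1 (620.1 kb). With the copies included, HNRNPCL1 and HNRNPCL2 on chromosome 1 (267 kb) and HNRNPF and HNRNPA3P1 on chromosome 10 (378 kb) also did. HNRNPR and SRSF10 were both called lower in ER-RNA and neither in total RNA. SRSF7 was called lower in ER-RNA at -1.05, while HNRNPLL was at -0.54 and not called.

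The cores ACGTG and GCGTG, to which hypoxia-inducible factors (HIFs) bind, were searched on both strands in the 250 bases upstream of the RefSeq starts (GRCh38.p14). Overlapping matches were counted separately. Start sites were listed for 29 of the 32 members, and not for HNRNPA1, HNRNPA3P1 and SRSF2. At least 1 core was present in 22 of 29 windows of HNRNP genes (75.9%) and 9 of 14 windows of SRSF genes (64.3%), against 49.7% of windows of all genes on the arrays and 43.2% of all windows. Windows of 1 gene can overlap, and some genes have several. The HNRNP windows include those of the copies HNRNPA1L2, HNRNPCL1 and HNRNPCL2, each with at least 1 core. Both cores contain the bases CG, and the shares were not adjusted for base composition. The windows of the members that stand out above are shown because they differ in these cores, which are in capitals. HNRNPAB (chr5:178204283-178204532, plus strand) and SRSF5 (chr14:69766892-69767141, plus strand) had 0 cores, HNRNPM (chr19:8444725-8444974, plus strand) had 3, of which 2 overlap as CACGTG, and SRSF1 (chr17:58007247-58007496, minus strand) had 5.
HNRNPAB: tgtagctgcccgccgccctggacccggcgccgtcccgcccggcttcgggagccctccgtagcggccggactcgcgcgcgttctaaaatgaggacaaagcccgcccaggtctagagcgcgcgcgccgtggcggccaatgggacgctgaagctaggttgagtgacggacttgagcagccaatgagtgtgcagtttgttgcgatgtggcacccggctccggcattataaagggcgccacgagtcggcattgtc
HNRNPM: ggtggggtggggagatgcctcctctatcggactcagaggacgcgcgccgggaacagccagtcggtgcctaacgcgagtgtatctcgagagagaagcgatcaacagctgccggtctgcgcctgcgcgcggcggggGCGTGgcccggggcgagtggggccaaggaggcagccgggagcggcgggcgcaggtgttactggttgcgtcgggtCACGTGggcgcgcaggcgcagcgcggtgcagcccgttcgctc
SRSF1: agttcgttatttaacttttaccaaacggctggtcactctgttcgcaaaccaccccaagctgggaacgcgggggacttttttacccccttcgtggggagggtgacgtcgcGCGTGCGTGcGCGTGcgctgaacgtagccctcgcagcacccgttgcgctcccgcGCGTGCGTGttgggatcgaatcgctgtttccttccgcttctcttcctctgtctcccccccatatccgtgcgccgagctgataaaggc
SRSF5: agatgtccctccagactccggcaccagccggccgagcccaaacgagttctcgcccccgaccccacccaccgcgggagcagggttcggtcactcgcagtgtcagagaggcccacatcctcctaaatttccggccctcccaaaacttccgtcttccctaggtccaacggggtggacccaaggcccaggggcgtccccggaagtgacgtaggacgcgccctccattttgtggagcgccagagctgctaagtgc
The windows shown were picked because they differ in cores, and whether cores go with the changes was not tested. A match of letters is a description and does not show that a factor binds there.

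The kinases and import receptors of SR proteins were read beside the SRSF genes. Of 11 measured genes CLK1, a kinase that phosphorylates SR proteins in the nucleus, was called higher in both fractions and 0 were called lower. CLK1 had 10.15 in hypoxia and 9.09 in control in ER-RNA (fold 2.09, z = 3.27), and 9.46 in hypoxia and 7.95 in control in total RNA (fold 2.84, z = 5.78). SRPK1, the cytoplasmic kinase of SR proteins, was the lowest of the list at -0.84 in ER-RNA and -0.69 in total RNA and was not called. The list medians were 0.15 in ER-RNA and 0.01 in total RNA. Over all expressed genes, 8.25% were called lower and 1.12% higher in ER-RNA, and 7.45% and 2.32% in total RNA.

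hnRNP proteins that carry other symbols, such as the PTBP and PCBP genes, were taken as a further list. Of 9 measured genes 0 were called in either fraction, and their medians were 0.03 in both. The shares called over all expressed genes, given for the kinases, apply to this list and the next. In ER-RNA they ran from -0.59 for PTBP2, the neuronal relative of the polypyrimidine tract binding protein, to 0.42 for PCBP2, which binds C-rich RNA. In total RNA they ran from -0.34 for PCBP4 to 0.26 for PTBP3. Among 28 SR-related genes, TRA2B, an enhancer-binding relative of the SR proteins, was called lower in ER-RNA (-1.06) and LUC7L3, a protein linked to the U1 particle, higher in total RNA (0.89), with list medians of -0.28 in ER-RNA and -0.08 in total RNA.

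The core spliceosome had medians close to those of the HNRNP and SRSF genes. Of its 57 measured genes, 10 of 55 expressed were called lower in ER-RNA and 7 of 52 in total RNA, 4 of them in both (LSM2, SF3A3, SNRNP40 and SNRPD1), and 0 were called higher. Over all expressed genes, 8.25% were called lower in ER-RNA and 7.45% in total RNA, 495 genes in both. Called higher were 1.12% and 2.32%. The medians were -0.54 in ER-RNA and -0.47 in total RNA. The lowest were CDC40, a factor of the second splicing step, in ER-RNA (-1.48, z = -4.84), and LSM2, of the ring that binds U6, in total RNA (-1.20, z = -4.56). SF3A2 was highest in ER-RNA (0.23) and PRPF39 in total RNA (0.41). Of 24 other splicing regulators ILF2 was called lower in both fractions (-1.20 in ER-RNA and -1.04 in total RNA) and FUBP1 and TIA1 in ER-RNA alone, KHDRBS3 was highest (0.58 and 0.75) and not called, and the medians were -0.18 and 0.07. Among 7 measured genes of nonsense-mediated decay 0 were called, with SMG8 lowest (-0.62 and -0.51), SMG6 highest (0.32 and 0.63) and medians of -0.25 and -0.01.

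**Figure D5:**
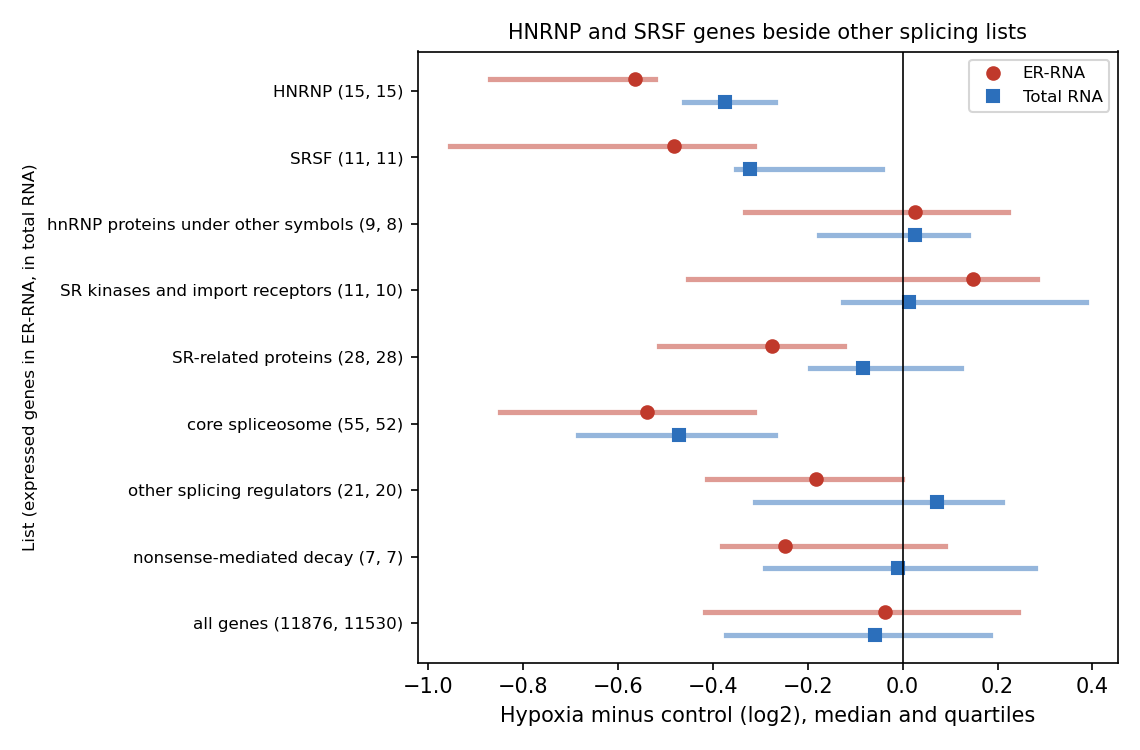
Median (symbols) and quartiles (bars) of hypoxia minus control on the log2 scale (x axis) over the expressed genes of each list (y axis, with their number in ER-RNA and in total RNA), for ER-RNA (circles) and total RNA (squares). HNRNP, SRSF and core spliceosome genes lie furthest left in both fractions, at -0.56, -0.48 and -0.54 in ER-RNA.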

How the data were processed

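ER-RNA and total RNA of HT1080 cells were each measured on an array of the Human Gene 1.0 ST type per condition. The table deposited by the authors holds log2 values after RMA for 33297 probe sets. Partek 6.4 is named beside RMA in the submitters' processing notes. A single RMA run over all 4 arrays is not stated. Genes were named from the platform annotation, in which 19460 probe sets name 1 gene and 1754 several, and 19429 of those naming 1 gene were matched by gene identifier to RefSeq.

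Hypoxia was compared with control within each fraction over all probe sets as a plain log2 difference in R 4.3.3. ER-RNA was compared with total RNA after subtracting the median gene. From limma 3.58.1 only the quantile normalization among the alternatives was used. Following the thresholds in the methods, a change was called at a fold over 1.4 and a z-score over 3 where at least 1 array lay above its 50% quantile. The SD was a loess fit (span 0.75, degree 2) of the absolute log2 difference over the square root of 2 on the mean signal. This is a reading of the methods, which cite another article for the model. Every member could be named. Of other lists, the expressed genes with the highest and the lowest change in each fraction were named by rule, while other called genes were named after their values were seen. Members and lists were chosen with earlier results of these data known. Alternatives covered normalization, filter, SD model, fold alone and probe set choice. Promoter windows came from RefSeq (GRCh38.p14). Figures were drawn with Python 3.11.15 and matplotlib 3.10.9.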

Additional observations from a re-analysis of the deposited data

Results flagged for a closer look

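For 7 members the change in hypoxia had opposite signs in ER-RNA and in total RNA. With 1 array per group the difference was not tested. Among expressed members, ER-RNA change minus total RNA change was -0.73 for SRSF5, -0.49 for SRSF6, -0.47 for SRSF9 and 0.27 for SRSF4. SRSF5 stood at -0.03 in ER-RNA and 0.71 in total RNA, and its sign in ER-RNA turned with quantile or loess normalization. SRSF6, at -0.48 and 0.00, and SRSF9, at -0.34 and 0.13, were lower in hypoxia in ER-RNA only, and SRSF4, at 0.18 and -0.09, was lower in total RNA only, none of them called. Among members below the expression filter in both fractions the difference was 0.73 for HNRNPA1, 0.94 for HNRNPCL1 and 0.14 for HNRNPCL2.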

How the results depend on the processing

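No paired analysis was possible because each group is 1 array. Of 252 values under alternatives, 192 kept their side of the thresholds or moved by at most 0.1 on the log2 scale, or, for counts, by at most 1.5 times. With the scaled-MAD SD 0 HNRNP and 0 SRSF genes were called in either fraction, where 2.01% of all expressed genes were called lower in ER-RNA and 1.81% in total RNA. By fold alone, 12 HNRNP and 5 SRSF genes were lower in ER-RNA, where 21.4% of all expressed genes were. In total RNA 3 HNRNP genes and 1 SRSF gene were lower by fold alone (18.6% of all expressed genes), and 1 SRSF gene was higher (6.20%). With loess, 3 HNRNP genes were called lower in ER-RNA, where 7.24% of all expressed genes were. In total RNA 1 SRSF gene was called higher with loess (2.91% of all expressed genes) and with quantile normalization (2.89%). HNRNPH1 and SRSF8 were called lower in ER-RNA when arrays were centred on their medians, without the filter and by fold alone. The HNRNP median change in ER-RNA was -0.36 with quantile normalization and -0.40 with loess, and in total RNA -0.25 with loess. The SRSF median was -0.30 with quantile normalization and -0.35 with loess in ER-RNA, and -0.22 and -0.20 in total RNA, where it was -0.22 without the filter. SRSF5 in ER-RNA turned to 0.065 with quantile normalization and 0.0496 with loess. The median of ER-RNA minus total RNA at 1% oxygen was -0.28 for HNRNP and -0.12 for SRSF genes with quantile normalization, -1.19 and -0.81 without centring, and -0.31 and -0.17 when centred on genes of similar mean. At 21% oxygen these were -0.13 and 0.26, -0.94 and -0.46, and -0.18 and 0.00899. The HNRNP median minus the SRSF median was -0.18 in total RNA without the filter, and at 1% oxygen -0.17 with quantile normalization and -0.15 without the filter. The median difference of the hypoxia change, ER-RNA minus total RNA, was -0.086 for HNRNP genes with quantile normalization. The 4 alternatives for that difference were chosen after seeing the data. Apart from the scaling and the SD model, the cause of these shifts was not tested.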
